A study of Mus musculus with 4 samples.

Results

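The NKG2D ligand genes H60b, H60c, Raet1d, Raet1e and Ulbp1 were examined for peaks of H3K9ac, the acetylation of histone H3 at lysine 9 that marks active promoters, in myeloid-derived suppressor cells (MDSC) grown from mouse bone marrow. All 5 genes were found among the 21887 protein-coding genes of the RefSeq annotation, and every peak over a gene's span plus 10 kb on either side, called the gene window here, was counted. These windows held 9 of the 16419 peaks listed for the CM condition and 29 of the 103336 peaks listed for CM with romidepsin. The genes were chosen by what these peak lists had already shown, in particular the romidepsin fold at H60b, so their values are given as descriptions without a test. Chromatin immunoprecipitation followed by sequencing had been run on MDSC made senescent in vitro, in 1 library labelled CM and 1 library labelled CM plus romidepsin, an inhibitor of class I histone deacetylases. The senescence treatment and CM, which the labels leave unexplained, were thus common to both, and strain, sex, age, dose and duration are not stated in the labels. With 1 library per condition there was no replicate error, and the read depth of both libraries was unknown.

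NKG2D is an activating receptor of natural killer (NK) cells and of some T cells. Its ligands are cell surface proteins that resemble MHC class I molecules. They are scarce on most healthy cells and appear with DNA damage, viral infection, transformation and senescence, which marks such cells for killing. In the mouse they form 3 families, namely the RAE-1 proteins, the H60 proteins and MULT1. The genes examined here were Raet1d and Raet1e for RAE-1, H60b and H60c for H60, and Ulbp1 for MULT1. Other members of these families were not examined. Inhibitors of histone deacetylases have been used to raise NKG2D ligands on tumour cells.

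All 5 gene windows held romidepsin peaks, and 3 of them, those of H60b, Raet1e and Ulbp1, also held CM peaks. Over all protein-coding genes, 58.8% of such windows met a CM peak and 72.2% met a romidepsin peak. The windows of Raet1d and H60c met a romidepsin peak and no CM peak, which was the case for 13.4% of all genes. No member had a CM peak alone, as 0.00914% of all genes did. The share of the window lying under peaks was 14.6% in CM and 56.9% with romidepsin at H60b, 4.54% and 44.0% at Raet1e, and 3.24% and 11.0% at Ulbp1. It was 0% and 39.2% at Raet1d and 0% and 12.6% at H60c. The median over all genes was 1.46% in CM and 12.0% with romidepsin. H60b, Raet1e and Raet1d, which are neighbours on chromosome 10, thus had at least 39.2% of their windows under romidepsin peaks, whereas the more distant Ulbp1 and H60c lay near the median of all genes. Ranked among all genes by this romidepsin share, H60b stood at percentile 86.4, Raet1e at 78.9 and Raet1d at 75.7. Many other genes thus had as large a share. H60c stood at percentile 50.9 and Ulbp1 at 48.5. The window lengths ran from 31.9 kb at H60c to 51.2 kb at Raet1e, against a median of 37.2 kb over all genes.

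**Figure D1:**
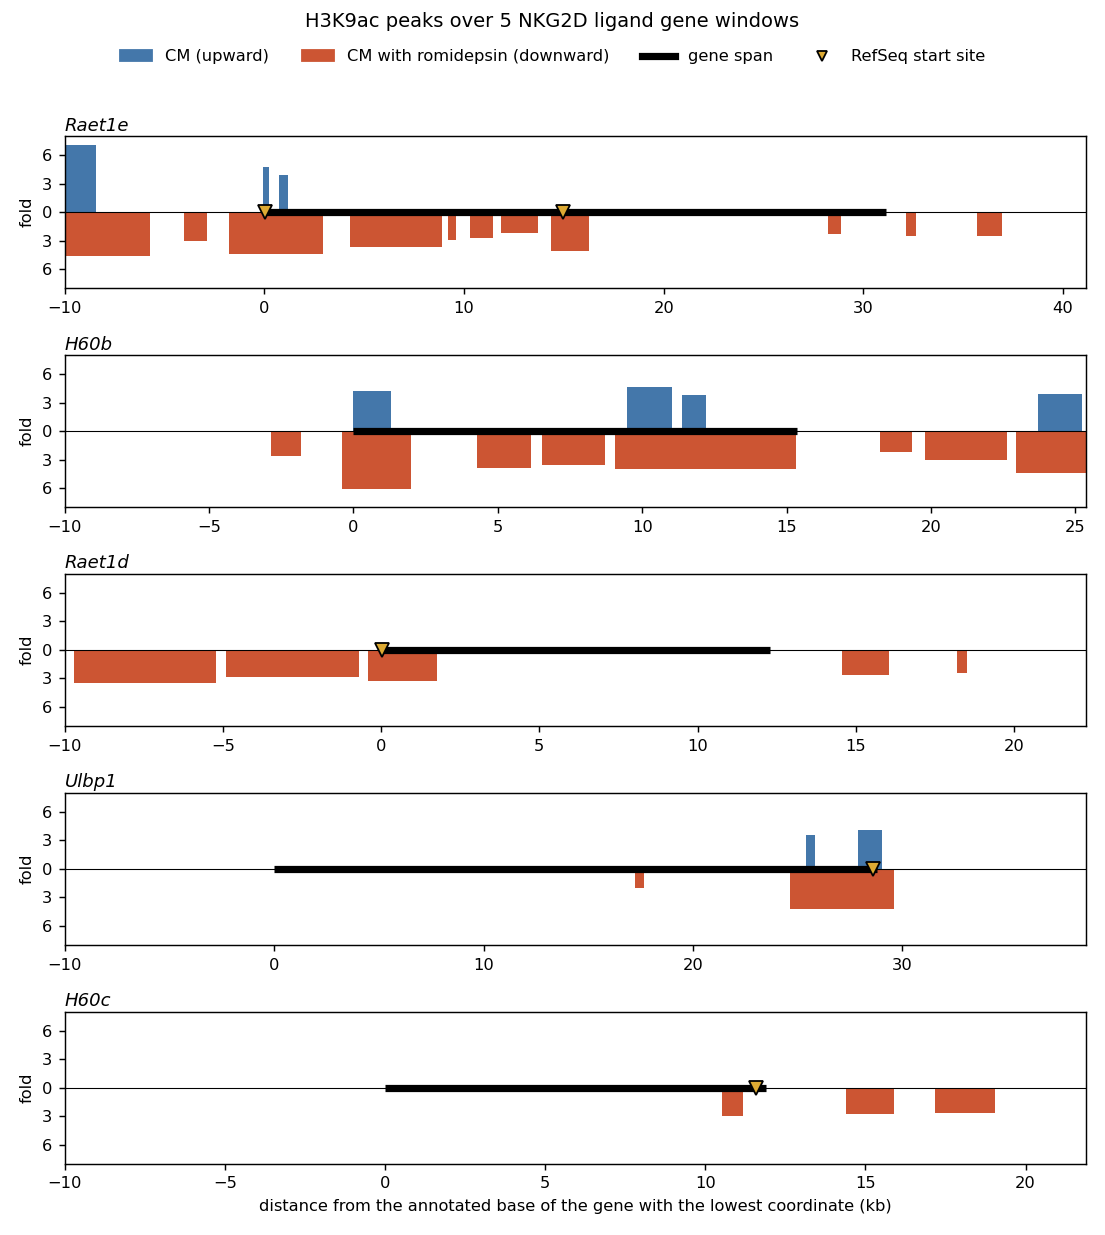
Peaks over the 5 gene windows, with the distance in kb from the end of the gene with the lowest coordinate on the x axis and the authors' fold enrichment on the y axis, upward for CM and downward for CM with romidepsin (black bar, gene span; triangle, RefSeq start site; none is drawn for H60b). All 9 CM peaks lie above a romidepsin peak, and Raet1d and H60c have no CM peak. In the whole CM list 16399 of 16419 peaks met a romidepsin peak.

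**Figure D2:**
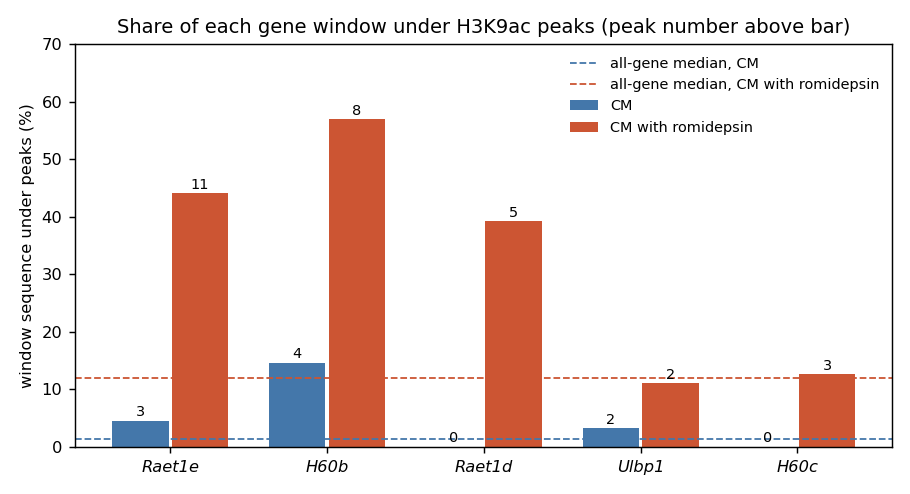
Percent of each gene window under peaks in CM and in CM with romidepsin, 1 library each, with the number of peaks above each bar and the median over all 21887 protein-coding genes as a dashed line. H60b, Raet1e and Raet1d stand at 56.9%, 44.0% and 39.2% with romidepsin, and Ulbp1 and H60c at 11.0% and 12.6%.

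H60b encodes a member of the H60 family and lies on chromosome 10 from 22273474 to 22288849 (mm10). In CM a peak of 1301 bp ran from 22273474 to 22274774 and so began at the annotated base of the gene with the lowest coordinate. Its fold, the authors' enrichment over background averaged over the broad region, was 4.17, with a −log10 q of 2.62. With romidepsin the peak there ran from 22273068 to 22275449, beginning 406 bp outside the gene, and had a fold of 6.07 and a −log10 q of 15.8. By fold it ranked 3 among the 103336 romidepsin peaks and by −log10 q it ranked 13, while the CM peak ranked 11529 by fold among 16419. Inside the gene, CM peaks lay from 22282953 to 22284490 (fold 4.62) and from 22284856 to 22285672 (fold 3.74). Both fell within a romidepsin peak of 6256 bp from 22282531 to 22288786 (fold 4.02). Romidepsin peaks without a CM peak lay between these, from 22277762 to 22279620 (fold 3.93) and from 22280010 to 22282201 (fold 3.58). The gene span itself lay under CM peaks over 23.8% and under romidepsin peaks over 79.9%, the highest share of the 5 genes in both lists. The long noncoding RNA gene Gm26740 (22186285 to 22306382) spans all of H60b, so the peaks over H60b cannot be assigned to one of these genes. No start site of H60b was used here, and which end of the gene is transcribed was not examined.

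Raet1e encodes RAE-1 epsilon, which is attached to the membrane by a glycolipid anchor, and lies from 22158542 to 22189697. RefSeq gave it start sites at 22158569 and 22173497 on the plus strand. The upstream start met a short CM peak of 305 bp (22158463 to 22158767, fold 4.73, −log10 q 3.89), followed by a peak from 22159269 to 22159744 (fold 3.91). With romidepsin a single peak of 4748 bp from 22156745 to 22161492 (fold 4.45, −log10 q 11.4) covered both. The downstream start met no CM peak, the nearest lying 13753 bp away, and met a romidepsin peak of 1903 bp from 22172912 to 22174814 (fold 4.04, −log10 q 7.03). In all, 7 romidepsin peaks lay over the gene, with folds from 2.21 to 4.45, and covered 43.5% of it, against 2.25% under its 2 CM peaks. The strongest CM peak of the window, from 22148570 to 22150111 (fold 7.04), lay at the outer edge of the upstream flank. It reached over the highest coordinate of the protein-coding gene E030030I06Rik and did not lie over Raet1e. The romidepsin peak there (22148265 to 22152808) had a fold of 4.67. Leaving the flanks out, the highest fold of Raet1e was 4.73 in CM and 4.45 with romidepsin. The promoter window at the upstream start, 250 bases before and 50 after it, is shown because it held a peak in both lists. The sequence is RefSeq's (GRCm38.p6), from 22158319 to 22158618 on the plus strand, with CG dinucleotides in capitals.
Raet1e upstream start: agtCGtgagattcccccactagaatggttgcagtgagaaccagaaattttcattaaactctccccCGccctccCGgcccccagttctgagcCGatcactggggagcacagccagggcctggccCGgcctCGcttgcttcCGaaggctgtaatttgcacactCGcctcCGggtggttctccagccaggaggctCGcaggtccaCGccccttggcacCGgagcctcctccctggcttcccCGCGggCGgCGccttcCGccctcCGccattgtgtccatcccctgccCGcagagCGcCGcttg

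Raet1d encodes RAE-1 delta, a close relative with the same kind of anchor, and lies from 22361861 to 22374143. It had no CM peak in its window, and the nearest CM peak ended 43645 bp from it. With romidepsin a peak of 2160 bp from 22361458 to 22363617 (fold 3.22, −log10 q 5.28) covered its start site at 22361894. Upstream of the gene lay romidepsin peaks of 4491 bp (22352142 to 22356632, fold 3.496, −log10 q 6.40) and 4191 bp (22356965 to 22361155, fold 2.85). The remaining 2 peaks of the window, beyond the other end of the gene, had folds of 2.66 and 2.403. Only 14.3% of the gene span lay under the romidepsin peak at its start, and no peak of either list was found over the rest of the gene.

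The promoter windows of Raet1d and of the downstream start of Raet1e are near-identical copies. Over 298 aligned bases they differed at 3 positions and were identical at 98.99%. Counted from 1 at the 5′ end of the Raet1e window, the differences from Raet1e to Raet1d were T128C, C180G and C195A. Of the 226 stretches of 75 bases in each window, the read length of these libraries, 82 occurred in both. A read from these stretches can come from either gene, and the treatment of reads with several matches is not stated in the labels. Both starts had a romidepsin peak and no CM peak, and these calls are uncertain as to which copy they belong to. No other pair of the 5 promoter windows shared a stretch of 75 bases. Copies of the H60 genes were not analysed here. The pair is printed from RefSeq (GRCm38.p6, plus strand, 22173247 to 22173546 for Raet1e and 22361644 to 22361943 for Raet1d) to show how little separates the copies, with the differing bases in capitals.
Raet1e downstream start: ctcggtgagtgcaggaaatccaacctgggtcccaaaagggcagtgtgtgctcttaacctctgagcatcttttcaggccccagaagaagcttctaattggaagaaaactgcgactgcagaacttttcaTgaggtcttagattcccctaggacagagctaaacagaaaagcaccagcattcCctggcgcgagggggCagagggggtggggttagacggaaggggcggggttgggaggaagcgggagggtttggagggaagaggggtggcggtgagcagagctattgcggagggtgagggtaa
Raet1d: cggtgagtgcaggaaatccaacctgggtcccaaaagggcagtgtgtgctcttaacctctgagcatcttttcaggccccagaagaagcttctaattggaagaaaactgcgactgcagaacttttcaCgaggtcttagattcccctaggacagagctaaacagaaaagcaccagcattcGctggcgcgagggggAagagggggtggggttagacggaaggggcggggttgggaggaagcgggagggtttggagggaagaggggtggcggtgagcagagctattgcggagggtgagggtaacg

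Ulbp1 encodes MULT1, a ligand that binds NKG2D with high affinity, and lies from 7444873 to 7473641 on the minus strand. Its start site at 7473477 met a CM peak of 1115 bp from 7472771 to 7473885 (fold 4.04, −log10 q 2.45). A second CM peak of 466 bp lay within the gene (7470253 to 7470718, fold 3.59, −log10 q 1.83). With romidepsin a single peak of 4957 bp from 7469509 to 7474465 (fold 4.25, −log10 q 8.05) took in both. A further romidepsin peak of 422 bp (7462091 to 7462512) had a fold of 2.06, the lowest of the 29. No peak of either list lay wholly in the flanks. Its promoter window is printed from RefSeq (GRCm38.p6, 7473428 to 7473727, minus strand) with CG dinucleotides in capitals, as the other start with a peak in both lists.
Ulbp1: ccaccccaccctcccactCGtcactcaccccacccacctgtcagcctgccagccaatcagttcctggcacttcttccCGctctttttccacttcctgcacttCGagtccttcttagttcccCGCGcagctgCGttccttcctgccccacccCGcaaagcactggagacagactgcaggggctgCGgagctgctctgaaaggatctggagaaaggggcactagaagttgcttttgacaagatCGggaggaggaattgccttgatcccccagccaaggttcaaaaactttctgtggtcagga

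H60c encodes an H60 protein described mainly in skin and lies from 3256202 to 3268091 on the minus strand. The nearest CM peak was 418406 bp from its window. With romidepsin a peak of 661 bp (3266723 to 3267383, fold 3.002, −log10 q 3.29) lay inside the gene and ended 388 bp short of the start site at 3267771. Upstream of the gene, 2 peaks lay from 3270606 to 3272089 (fold 2.78) and from 3273375 to 3275259 (fold 2.70). Both fell within the long noncoding RNA gene Gm29826, which begins at 3267698 and overlaps the start of H60c. The promoter window met no peak in either list, the only one of the 5 windows examined. It is printed from RefSeq (GRCm38.p6, 3267722 to 3268021, minus strand) with CG dinucleotides in capitals, for comparison with the CG content of Ulbp1 and Raet1e.
H60c: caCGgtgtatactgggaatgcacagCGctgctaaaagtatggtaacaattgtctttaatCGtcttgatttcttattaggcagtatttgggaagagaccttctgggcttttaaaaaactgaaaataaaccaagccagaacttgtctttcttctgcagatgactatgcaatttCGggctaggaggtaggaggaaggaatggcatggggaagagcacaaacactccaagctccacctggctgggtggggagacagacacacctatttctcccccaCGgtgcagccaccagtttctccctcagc

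The promoter windows differed in CG content. The count of CG dinucleotides in 300 bases was 21 at the upstream start of Raet1e, 12 at Raet1d, 9 at the downstream start of Raet1e, 9 at Ulbp1 and 5 at H60c, against a median of 7 over 32851 RefSeq promoter windows. CM peaks were met by 2 of the 5 windows and by 34.1% of all windows. Romidepsin peaks were met by 4 of the 5 and by 48.7% of all, and a romidepsin peak without a CM peak by 2 of the 5 and by 14.6% of all. These 2 windows are the near-identical copies Raet1d and Raet1e (downstream). Their calls are uncertain as to the copy, so 1 signal may be counted at both. Among all windows with 12 to 23 CG dinucleotides, 64.4% met a CM peak and 79.6% a romidepsin peak. Raet1e (upstream) met both and Raet1d met romidepsin only. Among those with 6 to 11, the shares were 21.4% and 42.1%, and Ulbp1 met both. Among those with 3 to 5, the shares were 6.40% and 24.9%, and H60c met neither. The copies Raet1d and Raet1e (downstream) fell on either side of the limit between 11 and 12 CG dinucleotides.

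**Figure D3:**
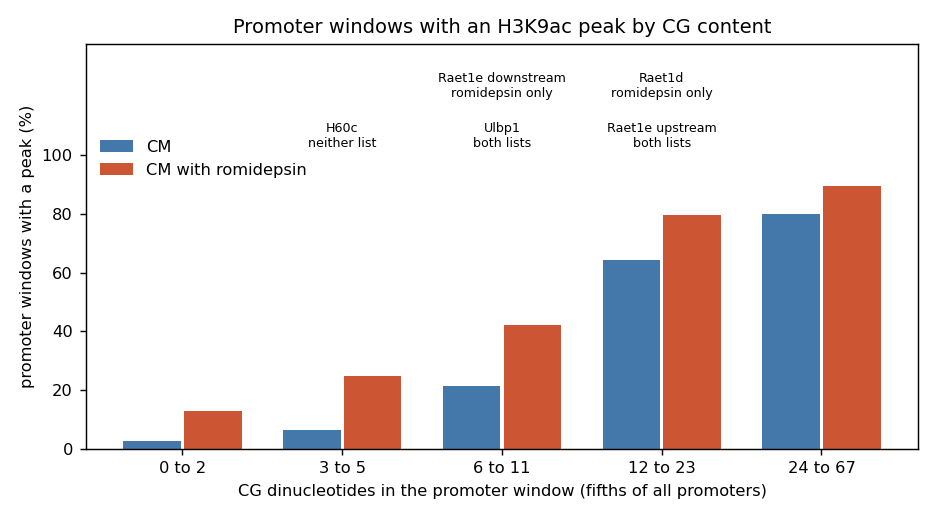
Percent of 32851 RefSeq promoter windows meeting a peak in CM and in CM with romidepsin, for 5 classes of CG dinucleotide count (x axis), with the NKG2D ligand promoter windows written above their class. CM peaks were met by 2.61% of windows in the lowest class and 80.2% in the highest, and the ligand windows fall in the 3 middle classes.

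In all, 11 short motifs were searched on both strands of the 5 windows. The Sp1 motif GGGCGG matched at the upstream start of Raet1e, at 3 places, and once at each copy of the Raet1 pair, against 35.7% of all windows. An E2F motif, GCGGGAA, matched only in the Ulbp1 window, at positions 74 to 80 on the reverse strand, against 4.60% of all windows. CCAAT matched at Ulbp1 and at both copies of the pair (37.4% of all windows). The heat shock unit pair GAANNTTC matched at both copies as gaagcttc (7.86% of all windows). The other motifs matched none of the 5 windows. Of all windows, 7.81% held the AP-1 motif TGANTCA and 1.79% the CRE motif TGACGTCA. The TATA box TATAAA was held by 13.6% of all windows. The E-box CACGTG was held by 7.15%. The ETS motif CCGGAAG was held by 8.86%. The E2F variant GCGCGAA was held by 1.59%, and the NF-kappaB motif searched by 20.7%. GGGCGG and the other motifs did not overlap each other in these windows. A match is a description of the letters only.

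The peaks of the 5 windows stood differently within their own lists. Of the 9 CM peaks, 1 had a fold above the CM list's median of 5.04, and this was the peak at E030030I06Rik. The median fold of the 9 was 4.04 and their median −log10 q was 2.49, against 4.08 for the whole CM list. Of the 29 romidepsin peaks, 21 had a fold above that list's median of 2.64 and 23 were longer than its median of 957 bp. Their median fold was 3.002 and their median length 1863 bp. Because the genes were chosen from these lists, in particular by the romidepsin fold at H60b, these counts are descriptions only. The highest fold per gene window was also ranked among all genes with a peak, and there the members spread from low to high in both lists. With romidepsin H60b stood at percentile 99.97 (fold 6.07), Raet1e at 96.1 (4.67), Ulbp1 at 77.7 (4.25), Raet1d at 22.0 (3.496) and H60c at 10.6 (3.002). In CM Raet1e stood at 90.2 (7.04, from the E030030I06Rik peak), H60b at 13.8 (4.62) and Ulbp1 at 5.77 (4.04). The lists differ in length, and their folds rest on different backgrounds, so these positions do not measure a gain or loss of H3K9ac.

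**Figure D4:**
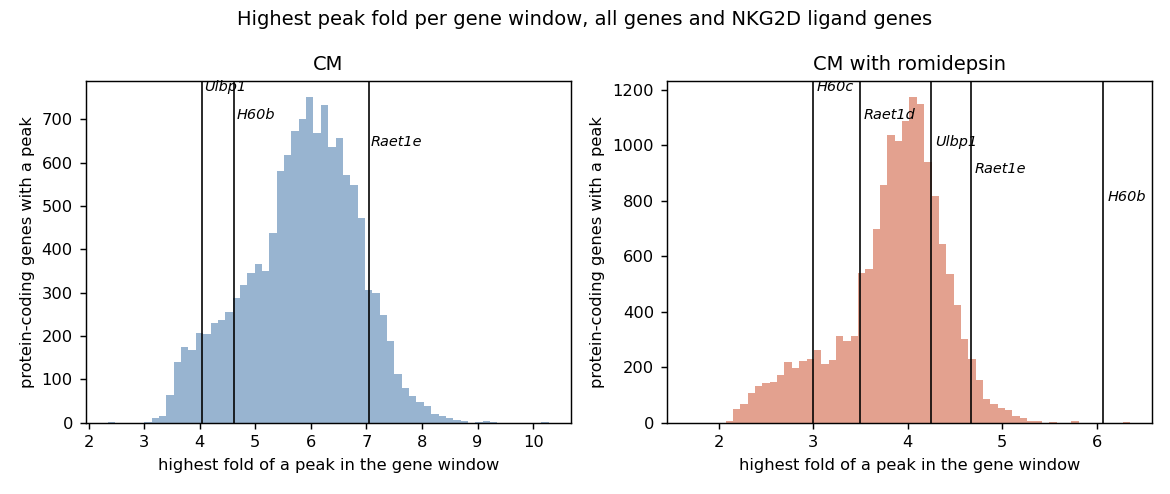
Number of protein-coding genes (y axis) by the highest fold of a peak in their window (x axis, bins of equal width) in each list, with the NKG2D ligand genes marked by lines. In CM Ulbp1 (4.04) and H60b (4.62) lie in the low part and Raet1e (7.04) in the high part of the distribution, and with romidepsin H60b (6.07) lies at its upper end.

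All 9 CM peaks were enclosed by a romidepsin peak. In the whole CM list 16399 of 16419 peaks met a romidepsin peak, and how many were enclosed was not counted. Together the 9 met 6 romidepsin peaks. Those 6 peaks had folds from 4.02 to 6.07 and lengths from 2382 to 17469 bp. The other 23 romidepsin peaks, with no CM peak, had folds from 2.06 to 4.04 and lengths from 338 to 4599 bp. The highest fold among these 23 was that of the peak at the downstream start of Raet1e. Over the whole romidepsin list 12.9% of the peaks met a CM peak, against 6 of 29 (20.7%) here. The 29 had a median length of 1863 bp, against 957 bp in the list. A share for peaks of like length was not computed. The romidepsin partner had a higher fold than the CM peak in 6 of the 9 cases, 3 at H60b, 2 at Ulbp1 and 1 at Raet1e. This held for 13.9% of all CM peaks with a partner, which is not a like comparison. The genes were chosen in particular by the romidepsin fold at H60b. Also, only 1 of the 9 CM peaks had a fold above the CM list's median of 5.04. Several CM peaks shared a partner, so these are not 6 separate regions, and the difference in background applies here too. The partner was longer by a median ratio of 7.66, against 4.37 over all CM peaks with a partner. The ratios ran from 1.83 at the lowest coordinate of H60b to 15.6 at the upstream start of Raet1e. These 9 ratios rest on the same 6 romidepsin peaks, so a shared partner is counted more than once.

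The choice of 10 kb set which peaks were counted at the edges. Just inside, the E030030I06Rik peaks reached the Raet1e window, and a romidepsin peak of 17469 bp (22296422 to 22313890, fold 4.39) reached the H60b window with its first 2428 bp. Just outside, a CM peak with a fold of 6.65 began 1730 bp beyond the H60b window, and romidepsin peaks lay 248 bp beyond the Raet1d window (fold 2.35) and 2441 bp beyond the Raet1e window (fold 3.08). With equal numbers of strongest peaks, 16419 per list by −log10 q, romidepsin peaks stayed over the windows of H60b, Raet1e, Raet1d and Ulbp1, and H60c had none. The corresponding share of all genes was 59.7%. At a −log10 q of at least 5, the only CM peak left in the 5 windows was the one at E030030I06Rik, and romidepsin peaks were left at H60b, Raet1e, Raet1d and Ulbp1. At that threshold 38.7% of all genes met a CM peak and 55.3% a romidepsin peak, and the lists differ in size and unknown depth.

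Genes whose windows had the most similar pair of highest folds, by distance in within-list percentile over these 2 libraries and 12876 genes, were Tmem161b (4.64 in CM, 4.89 with romidepsin) and Dagla (4.69 and 4.91) for H60b, and Nrarp (3.88 and 4.25) and Eps8l3 (4.07 and 4.22) for Ulbp1. For Raet1e they were E030030I06Rik, by way of the shared peak, and Dcaf1 (7.05 and 4.66). The nearest genes to H60b had romidepsin folds below its 6.07, which is no separate result. That fold stood at percentile 99.97 and was a reason for choosing the genes, so few genes could reach it.

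Other genes of the NKG2D pathway were counted by the same window rule. The receptor gene Klrk1 had a romidepsin peak only (fold 2.78), and the adaptor genes Hcst (DAP10) and Tyrobp (DAP12), which adjoin each other, shared a highest fold of 6.51 in CM and 4.32 with romidepsin. Among ligand genes of other NK cell receptors, CM peaks were listed for 10 of 12 and romidepsin peaks for 11 of 12. The highest romidepsin fold was found at Clec2d, a ligand of an inhibitory NK receptor (8.39 in CM, 4.55 with romidepsin). Clec2f had a romidepsin peak only (fold 2.81) and Clec2h had none in either list. Regulators linked to NKG2D ligand expression, such as DNA damage kinases and E2F factors, were marked in both lists at all 11 genes, with Atm, the DNA damage kinase gene, at 6.99 and 4.77. Of the 7 genes for shedding and turnover of the ligands, 6 were marked in CM and 7 with romidepsin, with Pdia6, a disulfide isomerase gene, at 7.40 and 4.53 and a romidepsin peak only at Marchf4 (fold 2.78). For comparison, the NKG2D ligand genes stood at 3 of 5 and 5 of 5. The median share of the window under romidepsin peaks was 39.2% for the ligand genes, 47.8% for ligands of other receptors, 53.4% for the regulators and 31.2% for shedding and turnover. In CM it was 3.24%, 8.04%, 7.40% and 6.22%.

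**Figure D5:**
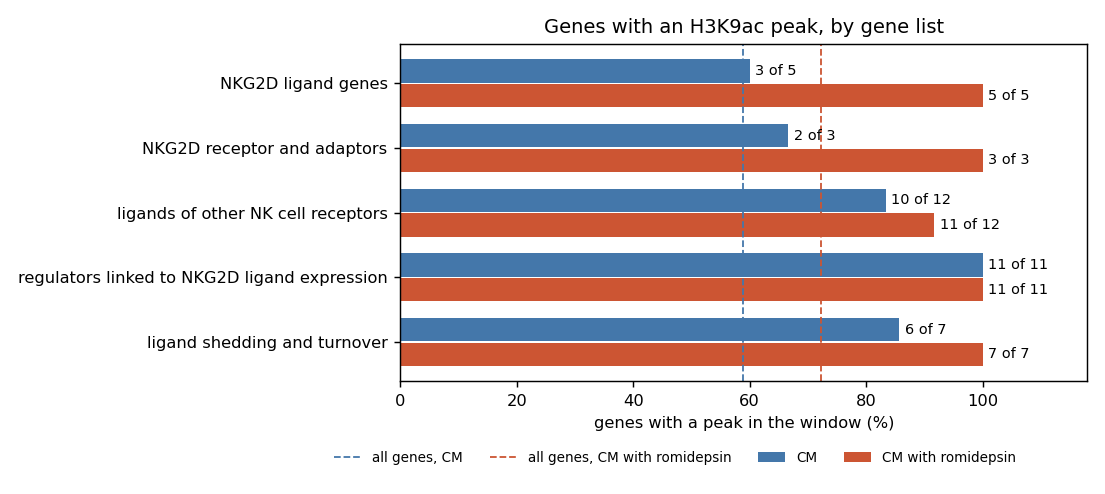
Percent of genes with a peak in their window (x axis) for 5 gene lists, in CM and in CM with romidepsin, with counts beside the bars and the share over all protein-coding genes as dashed lines. The ligand genes stand at 3 of 5 in CM, near the 58.8% of all genes, and at 5 of 5 with romidepsin, where all genes stand at 72.2%.

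The labelled cell type was checked with marker genes by the same rule, under which 58.8% of all genes met a CM peak and 72.2% a romidepsin peak. Of 14 myeloid markers, 12 met a CM peak and 14 a romidepsin peak, the granulocyte genes S100a9 and Ly6g being without a CM peak. The corresponding numbers were 1 and 5 of 7 NK and T cell markers, 1 and 3 of 4 B cell markers, 2 and 2 of 3 erythroid markers, and 1 and 5 of 5 stromal and endothelial markers. Markers of other cell types thus also met more romidepsin peaks than CM peaks in 3 of these 4 lists, and the part of other cells in the ligand peaks was not tested.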

How the data were processed

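H3K9ac was profiled in 2 immunoprecipitated libraries, and the 2 input libraries were not analysed here. Chromatin was sheared to 0.5 to 2 kb and sequenced as 75 bp single-end reads, per the labels' protocols. Bowtie2 (2.4.4), MACS2 (2.2.7.1) and deepTools (3.5.1) with mm10 are named in the submitters' processing notes, with no settings. Use of the input as control and the treatment of reads with several matches are not stated in the labels either. Each deposited list held broad peaks of 1 library with a score (not used), a fold ratio, a −log10 p-value and a −log10 q-value, all from the authors' peak caller. Wide peaks can hold a summit above their fold, and a deeper library yields more and wider peaks.

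Positions were written with a first base numbered 1. Gene spans came from a RefSeq table of GRCm38.p6, and mitochondrial genes were left out. Peaks were assigned to windows of 10 kb around gene spans, or to RefSeq promoter windows (250 bp before to 50 bp after a start), at 1 bp overlap, in Python (3.11.15, pandas 2.3.3). Of the 5 genes, 4 had promoter entries and H60b had none. The overlap code was checked on simulated peaks. The members, lists and motifs were chosen with earlier results of these data known. Named genes were the members, protein-coding neighbours sharing a peak, the strongest listed gene of each class, the members of small counts, and the 2 genes nearest in percentile. Alternatives covered flanks, thresholds, merging, overlap and equal peak numbers. No test was run.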

Additional observations from a re-analysis of the deposited data

How the results depend on the processing

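Each condition had 1 library, so replicate error could not be measured, and depth, which is unknown, limits which weak peaks were listed. No paired analysis was possible because no condition had a second library. In the 5 gene windows, 9084 bp lay under CM peaks and 64700 bp under romidepsin peaks. Flanks of 0 kb gave 15 romidepsin peaks over 32805 bp and 5695 bp under CM peaks, flanks of 5 kb gave 6018 bp and flanks of 20 kb 14094 bp under CM peaks. A −log10 q of at least 5 left 1 gene with a CM peak, 1 CM peak and 1542 bp, and 12 romidepsin peaks over 42242 bp. A −log10 q of at least 10 left 0 genes with a CM peak, 0 CM peaks and 0 bp, and 2 genes with 3 romidepsin peaks over 9558 bp. A fold of at least 3 left 15 romidepsin peaks. A fold of at least 5 left 1 gene with a CM peak (1 peak, 1542 bp) and 1 gene with a romidepsin peak (1 peak, 2382 bp), the latter without a CM peak. The latter is H60b, by the peak whose fold led to the choice of the genes. The median fold was 5.04 in the CM list and 2.64 in the romidepsin list, so a shared fold threshold cuts them unequally. Shares over all genes were not computed for a −log10 q of at least 10, for fold thresholds, or for romidepsin peaks only with equal numbers. Equal numbers of strongest peaks left 12 romidepsin peaks over 42242 bp and 1 gene, Raet1d, with a romidepsin peak only. Merging peaks closer than 1 kb gave 19 romidepsin peaks. Wider flanks counted more peaks, and the other settings named here counted fewer or joined peaks. In 50 further combinations of a summary count and a setting the value moved by no more than 1.5 times, as did all 31 alternative values of a gene's highest fold. An unchanged count can hold other genes. At a −log10 q of at least 10 the 2 genes with a romidepsin peak only were H60b and Raet1e, in place of Raet1d and H60c. The 31 values leave out H60c with equal numbers of strongest peaks, where it had no romidepsin peak. The highest CM fold of Raet1e was 4.73 with flanks of 0 or 5 kb, and that of H60b was 6.65 with flanks of 20 kb.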

Other observations

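The sequence between the ligand gene windows also held peaks. Raet1e, H60b and Raet1d lie within 215.6 kb of chromosome 10, from 22158542 to 22374143, of which 5.05% lay under CM peaks and 35.2% under romidepsin peaks. Between the windows of Raet1e and H60b, 63.8 kb held no CM peak and 6 romidepsin peaks with folds from 2.45 to 3.79, all within the noncoding gene Gm26740. The highest fold belonged to the peak from 22211558 to 22213187 (−log10 q 5.91), and the highest −log10 q, 6.38, to the peak from 22223157 to 22225164 (fold 3.78). Between the windows of H60b and Raet1d, 53.0 kb held 2 CM peaks, from 22300579 to 22303401 (fold 6.65) and from 22306030 to 22308216 (fold 5.37). The second of them reached the noncoding gene C920009B18Rik. These were stronger within the CM list than any CM peak over a ligand gene. With romidepsin 1 peak of 17469 bp covered both of them and a CM peak of the H60b window, and 3 weaker peaks with folds from 2.19 to 2.45 followed towards Raet1d.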
